A study of Mus musculus with 24 samples.

Results

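The promoters of 33 marker genes of the non-neuronal cells of the brain were followed in H3K27me3 CUT&RUN peak lists from cultured mouse cerebellar granule neurons (CGNs). The genes were taken by name from a list of glial, microglial and vascular markers, with no measured value used. They stand among 21938 protein-coding genes and comprise 7 markers of astrocytes and radial glia, 11 of the oligodendrocyte lineage, 6 of microglia, 5 of endothelium, and 4 of mural cells and fibroblasts. CUT&RUN releases DNA fragments bound by an antibody to a histone mark, and a peak is a stretch where fragments exceed the local background. A promoter here is the 6 kb window centred on the annotated 5′ end of the gene (3 kb on each side), and its coverage is the percentage of that window lying under peaks.

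The series held 24 libraries in 8 groups of 3. The time course comprised DIV1, DIV3, DIV5 and DIV7, named by the day in vitro of the harvest. In the inhibitor experiments cultures received 5 µM GSK-126, an inhibitor of the H3K27 methyltransferase EZH2, or its DMSO vehicle, and GSK-J4 at 1 µM, which inhibits the KDM6 family of H3K27 demethylases, or its own DMSO vehicle. Exposure began on DIV1 and ended with the harvest on DIV5. All cultures were prepared from granule neuron precursors purified on a Percoll gradient from the cerebella of CD-1 IGS pups of both sexes at postnatal days 6 to 8, with litters pooled within a replicate. In all groups but DIV1, 1 µM AraC, a nucleoside that kills dividing cells, had been added on DIV2 against non-neuronal cells. DIV1 was thus the only group harvested before AraC, and the day and AraC cannot be told apart in any DIV1 comparison.

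H3K27me3 is laid down by Polycomb repressive complex 2, whose catalytic subunit is EZH2 or EZH1, and is removed by KDM6 demethylases. In mammals the mark typically lies over CpG-rich promoters of genes that a cell lineage keeps silent, including regulators of other lineages. Genes of glia and of vessels are therefore promoters at which a neuron may carry the mark. A glial or vascular cell of a mixed culture would add little of it at the active markers of its own class. At markers of the other classes such a cell may carry the mark too. Which cells carried the mark was not tested. The lists come from bulk cultures, in which fewer marked cells and less mark per cell cannot be told apart.

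The lists differed in extent. They held 4740 to 22832 peaks that together covered 1.07 to 6.57 Mb of the genome, and the sequencing depth behind them is unknown. At DIV1 the 3 lists covered 1.33, 5.19 and 4.08 Mb, and the 9 later lists of the time course 1.11 to 6.57 Mb. GSK-126 lists covered 1.07 to 2.00 Mb and the lists of their DMSO controls 3.29 to 4.23 Mb, while GSK-J4 lists covered 1.40 to 3.11 Mb and those of their DMSO controls 1.70 to 2.08 Mb. Values are given for all deposited peaks unless stated. For the main test each list was limited to its strongest peaks, by −log10 p, up to the shortest covered length of its experiment, called the common length below (1.11 Mb in the time course, 1.07 Mb for GSK-126 and 1.40 Mb for GSK-J4). The labelled cell type could be checked only by absence of the mark. Of 12 genes of granule neurons, 8 had no promoter peak in any library and the other 4, Neurod1, Cbln1, Rbfox3 and Zic2, had one in 5, 4, 2 and 1 libraries. As a share, 33.3% of these genes had a peak in any library, against 38.0% of all promoters. For a peak in 8 or more libraries the shares were 0% and 12.3%. The first 2 shares lie close together, so this check is weak.

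Among the 33 markers, 16 had a promoter peak in at least 1 of the 24 libraries and 17 in none. Peaks recurred at 8 genes: Cldn5 in 24 libraries, Sox8 in 21, Gja1 in 17, Mbp and Kdr in 14 each, Sox10 and Pdgfra in 11 each, and Mobp in 8. These 8 genes held 120 of the 140 pairs of a marker and a library with a peak. As a share, 24.2% of the markers had a peak in 8 or more libraries, against 12.3% of all 21938 promoters, and 48.5% against 38.0% had one in any library. The first of these contrasts was absent once the lists were limited: 6.06% of the markers and 6.54% of all promoters had a peak in 8 or more libraries at the common length, and 0% and 1.01% with peaks of −log10 q of at least 2. For a peak in any library the shares were 36.4% of the markers and 25.1% of all promoters at the common length, and 15.2% and 12.6% with −log10 q of at least 2. With all deposited peaks the share of markers with a peak was, in 21 of the 24 libraries, larger than the share of all promoters. These shares describe a list chosen by name and no test was made over it.

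**Figure D1:**
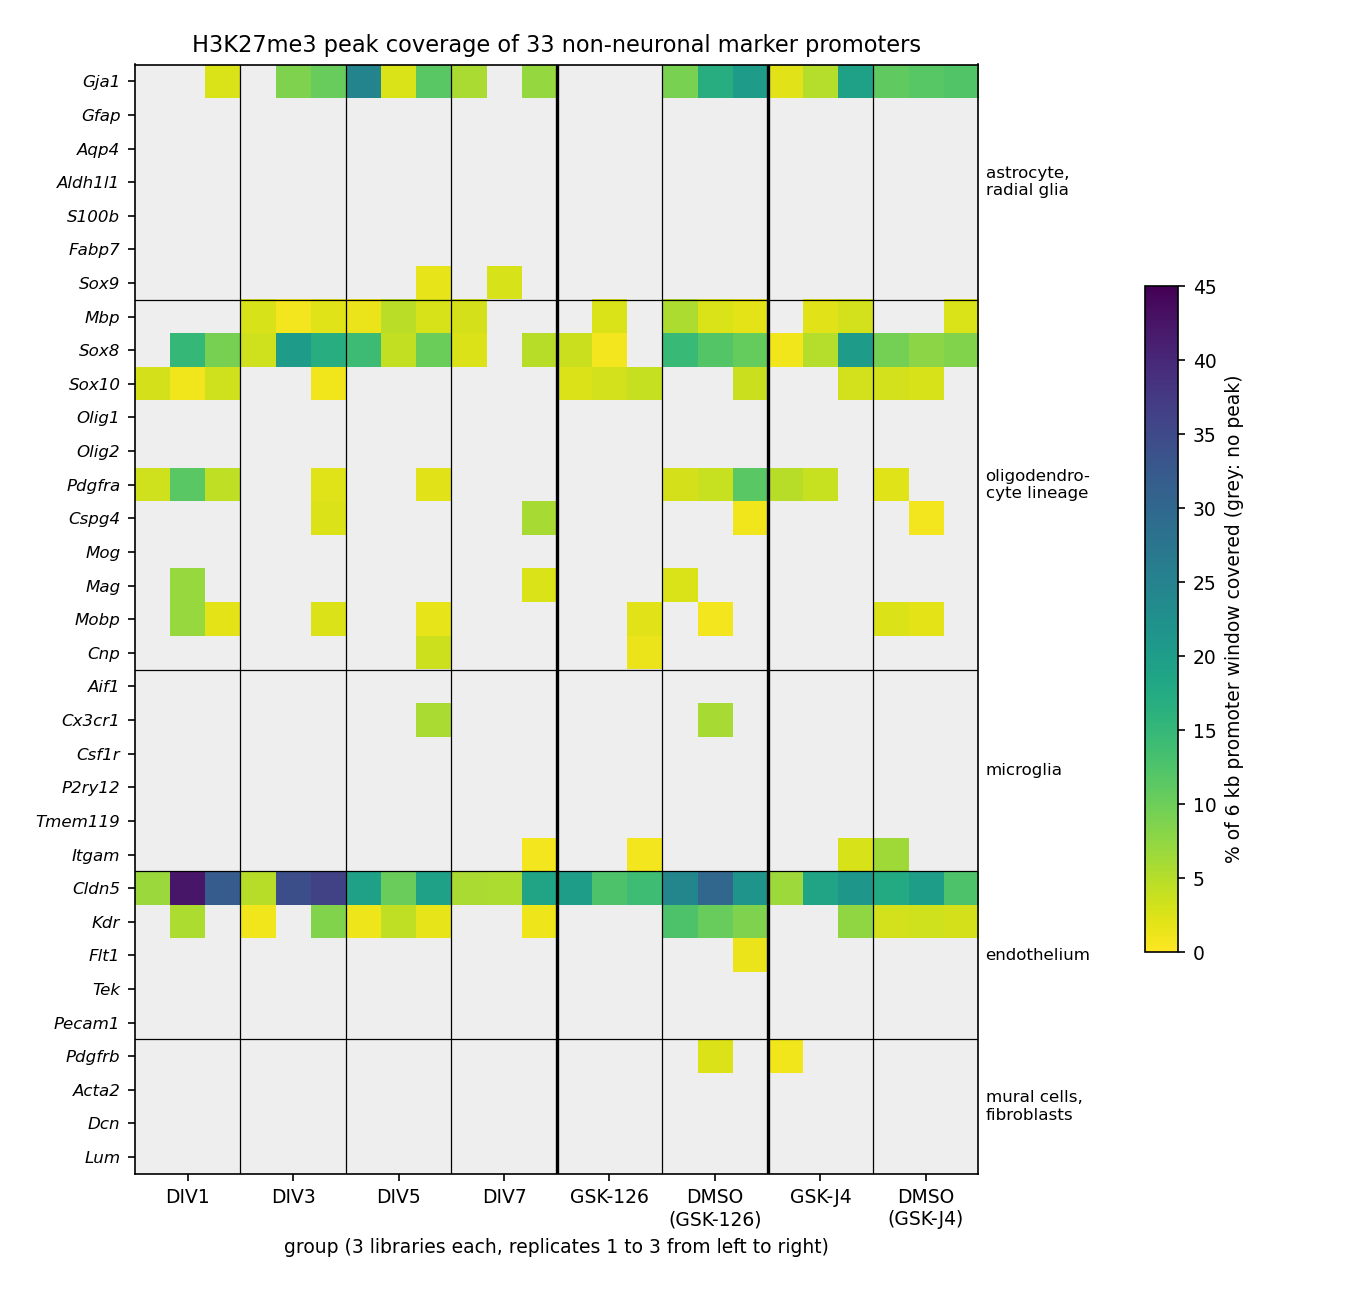
Percentage of each 6 kb promoter window covered by deposited H3K27me3 peaks, for 33 marker genes (rows, by cell class) in 24 libraries (columns, 3 per group). Colour gives the coverage and grey marks a promoter with no peak. Cldn5 was covered in all 24 libraries, and 17 rows are grey throughout.

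The sequences around recurrent peak positions of 6 markers are shown because they let the base composition there be read directly. Parts of a stretch may lie outside the peaks of some libraries. Of the recurrent markers, Mbp and Mobp are not shown, and no stretches of other promoters were set beside these. Each stretch surrounds the position covered in the most libraries outside untranslated regions. It is read 5′ to 3′ on the gene's strand from the mm10 genome, with each CpG dinucleotide in capitals.
Cldn5 (chr16:18777075-18777275, plus strand, single coding exon, position covered in 19 libraries): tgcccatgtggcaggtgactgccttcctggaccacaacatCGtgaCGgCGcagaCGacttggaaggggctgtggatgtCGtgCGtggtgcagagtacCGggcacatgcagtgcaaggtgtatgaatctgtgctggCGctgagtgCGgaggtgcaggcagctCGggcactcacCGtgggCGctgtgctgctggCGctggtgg
Sox8 (chr17:25570110-25570295, minus strand, coding exon, 19 libraries): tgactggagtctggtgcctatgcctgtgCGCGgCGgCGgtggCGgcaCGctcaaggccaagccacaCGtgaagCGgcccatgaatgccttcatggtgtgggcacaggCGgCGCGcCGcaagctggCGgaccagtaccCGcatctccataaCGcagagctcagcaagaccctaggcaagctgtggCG
Gja1 (chr10:56378600-56378800, plus strand, intron, 11 libraries): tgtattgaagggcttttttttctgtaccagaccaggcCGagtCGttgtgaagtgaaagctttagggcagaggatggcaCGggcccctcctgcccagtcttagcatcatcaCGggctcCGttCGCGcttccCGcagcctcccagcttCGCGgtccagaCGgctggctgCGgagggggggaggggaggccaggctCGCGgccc
Pdgfra (chr5:75154459-75154659, plus strand, intron, 10 libraries): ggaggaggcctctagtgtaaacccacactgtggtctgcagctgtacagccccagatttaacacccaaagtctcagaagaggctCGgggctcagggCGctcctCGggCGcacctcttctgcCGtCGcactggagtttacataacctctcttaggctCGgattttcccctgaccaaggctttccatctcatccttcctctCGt
Kdr (chr5:75977595-75977795, minus strand, intron, 9 libraries): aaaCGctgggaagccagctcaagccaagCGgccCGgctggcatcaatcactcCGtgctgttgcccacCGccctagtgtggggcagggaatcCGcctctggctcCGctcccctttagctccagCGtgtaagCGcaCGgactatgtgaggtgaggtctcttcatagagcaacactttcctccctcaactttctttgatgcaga
Sox10 (chr15:79163408-79163608, minus strand, coding exon, 7 libraries): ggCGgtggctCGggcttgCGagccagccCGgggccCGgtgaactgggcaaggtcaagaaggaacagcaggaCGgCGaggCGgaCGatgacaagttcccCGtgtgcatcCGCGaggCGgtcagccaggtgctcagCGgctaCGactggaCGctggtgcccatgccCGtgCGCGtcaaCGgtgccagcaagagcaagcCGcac
The 6 stretches held 8 to 21 CpG dinucleotides each, the fewest in Pdgfra and the most in Sox10. Their GC content lay between 56.2% and 68.7%. The Sox8 stretch encodes the start of its HMG box, the DNA-binding domain of Sox proteins.

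Most peaks in the marker windows lay downstream of the 5′ end, with Cldn5 as an exception. Of the peaks in the marker windows, 137 (68.2%) lay wholly downstream of the 5′ end, 25 spanned it and 39 lay wholly upstream. Over all promoters 59.2% of 79901 peaks lay wholly downstream. At Cldn5 22 of 51 peaks lay wholly downstream, 16 spanned the 5′ end and 13 lay wholly upstream. The position shared by the most libraries was 953 to 986 bp downstream of the 5′ end in Cldn5, in its untranslated 3′ part. In Sox8 it was 482 to 500 bp downstream, in Gja1 1343 to 1396 bp, in Kdr 753 to 774 bp, in Sox10 1717 to 1748 bp, and in Pdgfra 2252 to 2282 bp. All 11 peaks of Sox10 and all 11 of Pdgfra lay downstream of the 5′ end, and the nearest lay 1690 bp from it in Sox10 and 1698 bp in Pdgfra. At Mbp at most 6 of the 14 libraries with a peak shared a position, and at Mobp at most 4 of 8. At Sox10 this was 7 of 11 and at Cldn5 21 of 24.

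**Figure D2:**
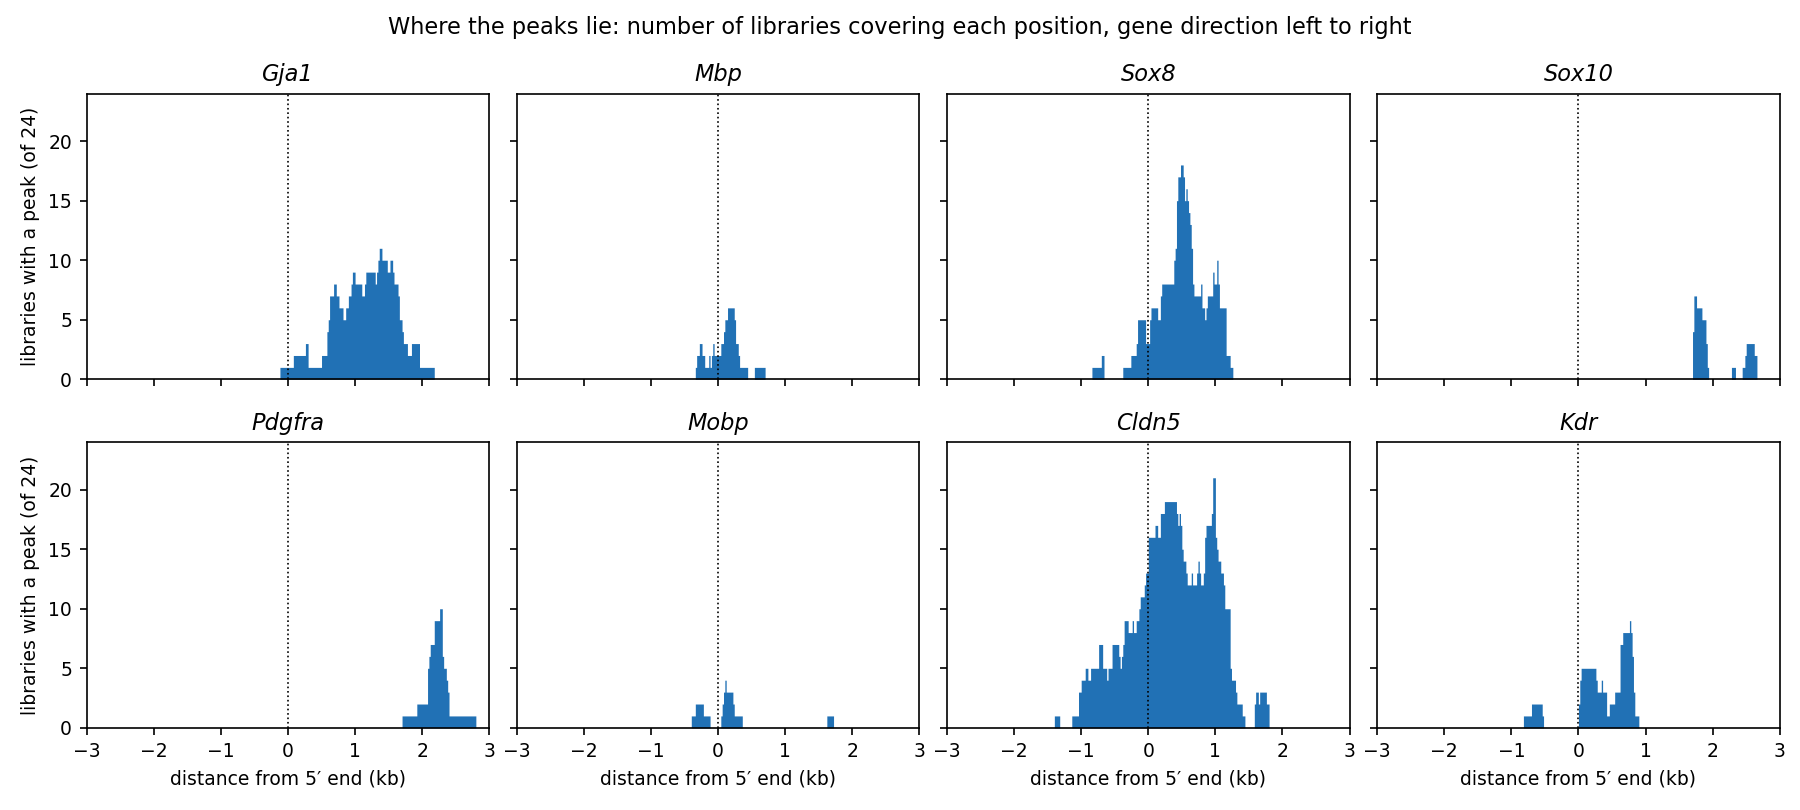
Number of libraries (of 24) with a deposited peak over each position from 3 kb upstream to 3 kb downstream of the annotated 5′ end (dotted line), for the 8 markers with a peak in at least 8 libraries. Sox10 and Pdgfra are covered only from 1690 and 1698 bp downstream, while Cldn5 is covered on both sides of the 5′ end.

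Peaks at the markers were weak. Their fold enrichment over the local background had a median of 3.18 and ran from 2.22 to 5.19, against a median of 3.65 and a highest value of 12.1 in all promoter windows. Only 7 of them (3.48%) reached a −log10 q of 2, against 11.4% of promoter peaks in general. They belonged to Itgam (3 libraries) and to Cldn5, Gja1, Kdr and Sox8 (1 library each). Median peak length was 193 bp in the marker windows and 220 bp in all promoter windows, and the longest marker peak, at Cldn5, was 2431 bp.

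The marked promoters were richer in CpG than the unmarked ones, with exceptions. The 8 recurrent markers had a median of 2.68 CpG per 100 bases, the 8 with a peak in 1 to 7 libraries 1.58, and the 17 without a peak 1.07. Over all promoters the median was 1.8, with 2.23 for promoters with a peak in 8 or more libraries and 1.53 for those with none. Of the 8 recurrent markers, 7 lay above the median of all promoters, with Mobp at 1.48 as the exception, compared with 3 of the 17 markers without a peak. Those 3 were Olig1, Olig2 and Tmem119. The window of Olig2, a basic helix-loop-helix regulator of the oligodendrocyte lineage, had 5.5 CpG per 100 bases, the highest of the 33 and above 99.5% of all promoters, yet no library had a peak there. Its neighbour in the same family, Olig1, had 4.03 and likewise no peak. The nearest peak to the 5′ end was 5645 bp away for Olig2 and 11502 bp away for Olig1. Sox9, a regulator of astrocyte fate, had 4.88 with a peak in 2 libraries, and Flt1, a receptor of vascular endothelial growth factor (VEGF), had 4 with a peak in 1 library.

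**Figure D3:**
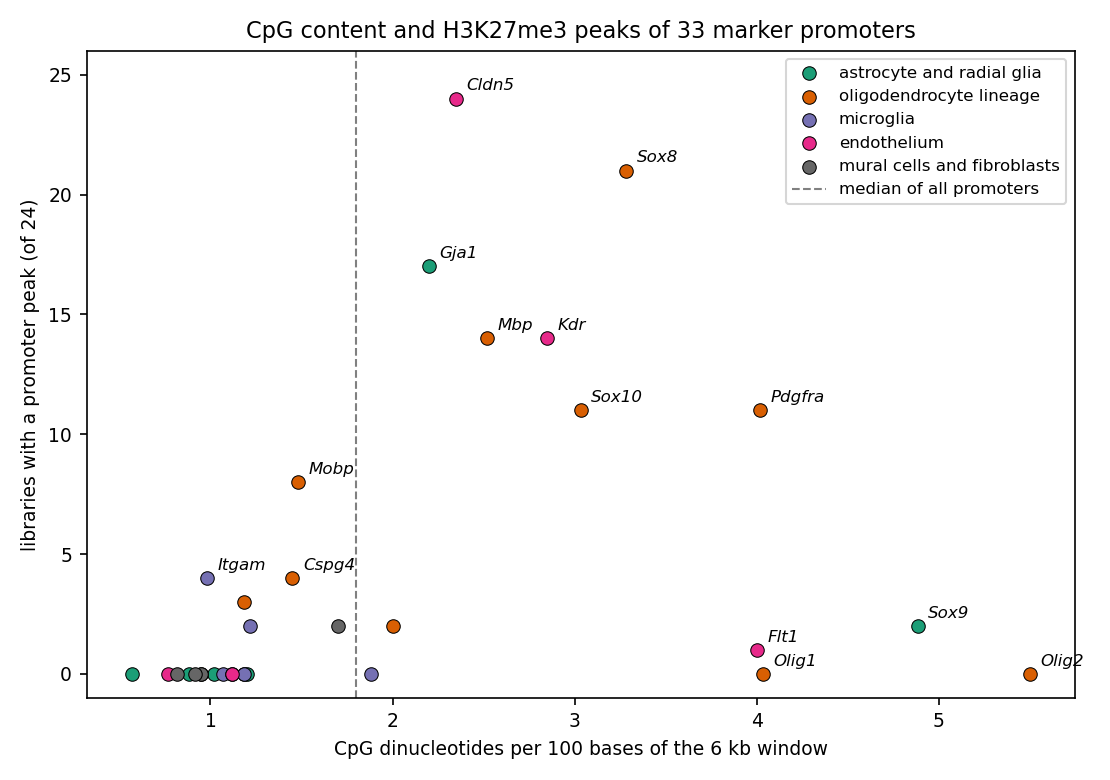
CpG dinucleotides per 100 bases of the 6 kb window (x axis) against the number of libraries with a promoter peak (y axis) for the 33 markers, coloured by cell class. The dashed line is the median of all 21938 promoters, 1.8. Olig1, Olig2, Flt1 and Sox9 stand at the right with peaks in 0 to 2 libraries.

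Cldn5 encodes the tight junction protein that seals brain endothelium, and its promoter was the most widely marked of the 33. Its mean coverage over the 24 libraries was 18.9%, above that of 99.8% of all promoters. In the time course it was 6.78%, 42.2% and 32.0% at DIV1, 4.83%, 34.3% and 36.2% at DIV3, 19.2%, 10.2% and 19.3% at DIV5, and 5.70%, 5.48% and 18.7% at DIV7. The lowest library of DIV1 and of DIV3 was replicate 1, whose lists were also the shortest of those days. The group means ran 27 ± 18.2% at DIV1, 25.1 ± 17.6% at DIV3, 16.2 ± 5.23% at DIV5 and 9.95 ± 7.55% at DIV7 (SD, n = 3 each), and the groups overlapped.

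Kdr encodes the main signalling receptor for VEGF in endothelium. Its coverage was 0%, 5.47% and 0% at DIV1, 1.03%, 0% and 8.6% at DIV3, 1.15%, 4.38% and 1.58% at DIV5, and 0%, 0% and 1.10% at DIV7. DIV5 was the only day with a peak in all 3 libraries, and its values overlapped those of the other days. Of the other endothelial markers, Flt1 had a promoter peak in 1 library, and Tek, the angiopoietin receptor, and Pecam1, an adhesion molecule, had none.

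Sox8 and Sox10 encode related Sox transcription factors of the oligodendrocyte lineage, and their peaks differed in extent. Sox8 coverage was 0%, 15% and 9.17% at DIV1, 3.18%, 20.1% and 17.0% at DIV3, 14.1%, 4.07% and 10.1% at DIV5, and 2.42%, 0% and 4.78% at DIV7. Sox10 coverage was 2.82%, 0.933% and 3.18% at DIV1 and 0%, 0% and 0.900% at DIV3, and no library of DIV5 or DIV7 had a peak. Sox8 was thus marked through the time course, whereas Sox10 was marked in all 3 DIV1 libraries and in 1 of the 9 later ones.

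Pdgfra encodes the growth factor receptor that marks oligodendrocyte precursors, and it was distributed over the days much like Sox10. Its coverage was 3.32%, 11.5% and 4.27% at DIV1, 0%, 0% and 2.18% at DIV3, 0%, 0% and 2.03% at DIV5, and 0% in the 3 libraries of DIV7. The DIV1 values lay above all 9 later ones, as they did narrowly for Sox10. The share of all promoters separated in this way was not counted, so the separation is not read as a result about these genes. With all deposited peaks, 66.7% of the 3584 promoters tested had a lower mean after DIV1. Mobp, a gene of compact myelin, had 0%, 6.95% and 1.92% at DIV1, 0%, 0% and 2.40% at DIV3, 0%, 0% and 1.6% at DIV5, and 0% in the 3 libraries of DIV7, so that the days overlapped.

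Mbp, which encodes myelin basic protein, was covered after DIV1 only. It had no peak in the 3 DIV1 libraries, while its coverage was 2.78%, 0.850% and 2.15% at DIV3, 1.25%, 4.63% and 2.73% at DIV5, and 2.90%, 0% and 0% at DIV7. Peaks were thus present in 7 of the 9 later libraries. The annotated 5′ end of Mbp belongs to the long Golli transcripts. Protein-coding transcripts also start up to 79434 bp downstream, and no library had a peak within 3 kb of those starts.

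Gja1 encodes the connexin of astrocyte gap junctions. Of the 7 astrocyte and radial glia markers among the 33, it alone had a recurrent peak around the annotated 5′ end. Astrocyte markers of the second list below also had recurrent peaks, among them Fgfr3 in 22 libraries and Gdf10 in 18. Its coverage was 0%, 0% and 2.47% at DIV1, 0%, 8.78% and 10.4% at DIV3, 24.8%, 2.60% and 11.6% at DIV5, and 5.70%, 0% and 7.08% at DIV7. The means were 0.822 ± 1.42%, 6.39 ± 5.60%, 13 ± 11.1% and 4.26 ± 3.75% from DIV1 to DIV7 (SD, n = 3 each). All 3 DIV5 libraries exceeded the DIV1 libraries, and DIV3 and DIV7 overlapped them.

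**Figure D4:**
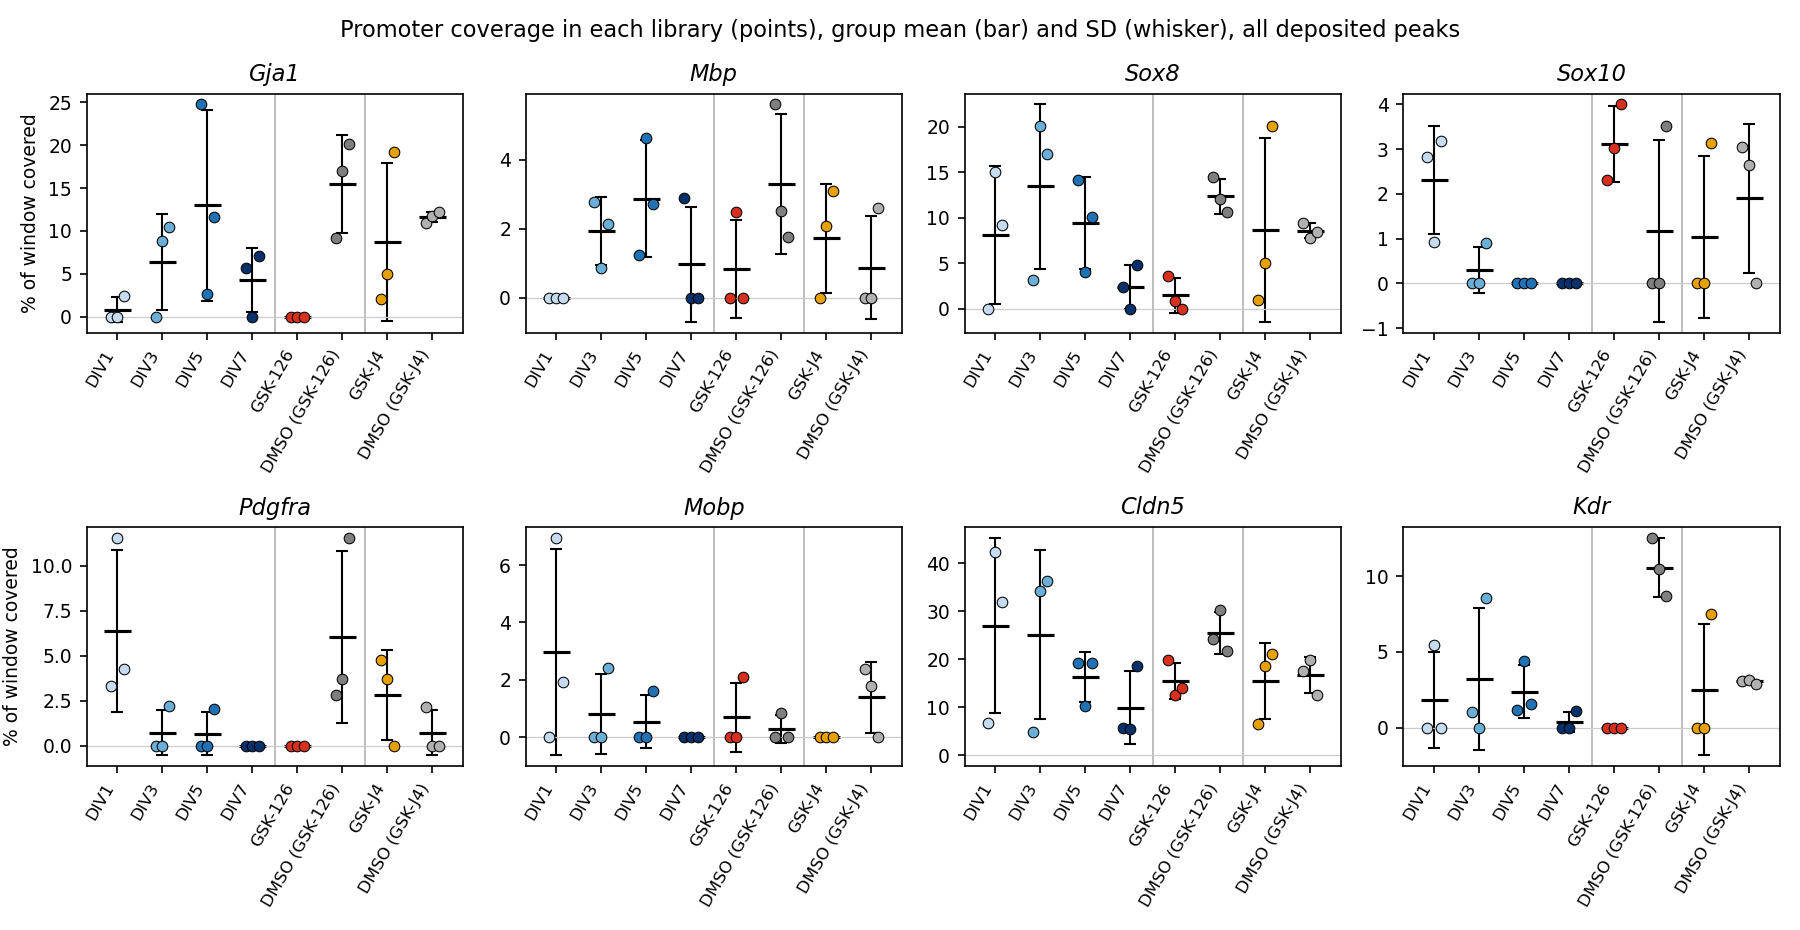
Promoter coverage in each library (points), with the group mean (bar) and SD (whisker, n = 3), for the 8 markers with a peak in at least 8 libraries. Each panel has its own y axis in percent of the 6 kb window, with all deposited peaks. Gja1, Kdr and Pdgfra are at 0% in all 3 GSK-126 libraries.

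The first comparison set the days after AraC against DIV1. No marker was called at the common length by limma (two-sided, Benjamini-Hochberg adjusted over all promoters tested, threshold 0.05), and only 2 of the 33, Sox8 and Cldn5, had coverage in the 3 or more libraries needed to be tested. Sox8 averaged 1.6% in DIV3 to DIV7 and 0% in DIV1 (difference 1.6 points, SE 1.33, limma adjusted p = 0.68). Cldn5 averaged 5.68% in DIV3 to DIV7 and 1.64% in DIV1 (difference 4.04 points, SE 3.09, limma adjusted p = 0.66). Of all 1794 promoters tested, 0.167% were called higher and 0.613% lower after DIV1.

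With all deposited peaks 8 markers were tested and again none was called, where 0.14% of 3584 promoters were called higher and 1.42% lower. Pdgfra came nearest, with 0.469% in DIV3 to DIV7 and 6.37% in DIV1 (difference −5.90 points, SE 1.68, limma adjusted p = 0.12). It was called only when the library DIV1 replicate 1 was left out (−7.42 points, limma adjusted p = 0.032). Sox10 averaged 0.1% in DIV3 to DIV7 and 2.31% in DIV1 (−2.21 points, SE 0.968, limma adjusted p = 0.32). Gja1 averaged 7.88% in DIV3 to DIV7 and 0.822% in DIV1 (7.05 points, SE 4.02, limma adjusted p = 0.45), and Mbp averaged 1.92% in DIV3 to DIV7 and 0% in DIV1 (1.92 points, SE 1.17, limma adjusted p = 0.47). Within the 3 replicate numbers Pdgfra changed by −3.32, −11.5 and −2.86 points and Gja1 by 10.2, 3.79 and 7.22 points. The sign was the same in all 3 for these 4 genes, which is no support. The numbers were not found to pair the libraries in a check at the common length. The sign was fixed for Pdgfra and Sox10, whose DIV1 values all exceeded the later ones, and could not be negative for Mbp. Signs were mixed for Sox8 (6.58, −6.97 and 1.48 points), Kdr (0.728, −4.01 and 3.76) and Cldn5 (3.14, −25.6 and −7.27). Mobp changed by 0, −6.95 and −0.583 points. For Cldn5 the mean was 17.1% in DIV3 to DIV7 and 27% in DIV1 (−9.91 points, limma adjusted p = 0.63), a direction opposite to that at the common length. The other 3 were Sox8 (0.361 points), Kdr (0.161 points) and Mobp (−2.51 points), with limma adjusted p of 0.974, 0.977 and 0.461.

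The same contrast was counted by presence of a deposited peak, with both counting rules written after the values were seen. Among markers with a peak in all 3 DIV1 libraries (Sox10, Pdgfra and Cldn5), 2 had a peak in at most 2 of the 9 later libraries, where 9.45% of 1376 such promoters did so. Among the 6 markers with no peak at DIV1 and at least 1 later, Mbp alone had a peak in 6 or more of the 9 later libraries, where 4.8% of 1688 such promoters did so. With 3 and 6 eligible markers these counts rest on single genes. The number of the 33 markers with a peak was 5.56 ± 2.60 in the DIV3 to DIV7 libraries (SD, n = 9, range 2 to 10) and 5.33 ± 2.08 in the DIV1 libraries (SD, n = 3, range 3 to 7). The corresponding share of all promoters was 10.8% in DIV3 to DIV7 and 12.7% in DIV1.

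**Figure D5:**
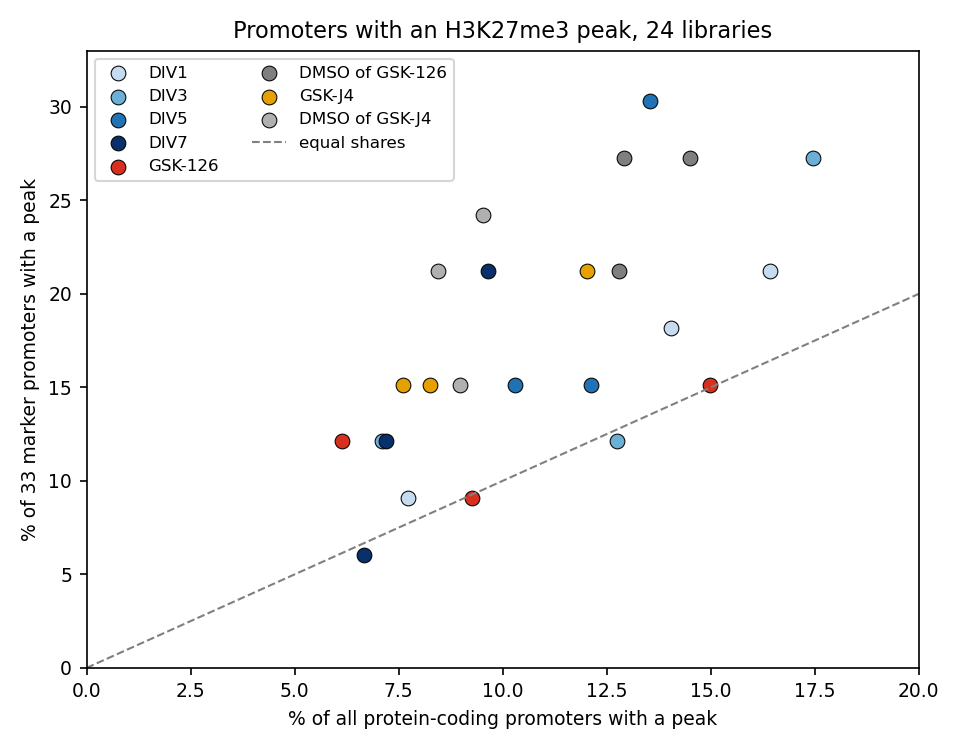
Percentage of the 33 marker promoters with a deposited peak (y axis) against the percentage of all 21938 protein-coding promoters with one (x axis) in each of the 24 libraries, coloured by group. The dashed line marks equal shares, and 21 libraries lie above it, with lists not limited to the common length.

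The second comparison asked whether blocking EZH2 changed the mark at these promoters. With all deposited peaks 4 of the 7 markers tested were called lower with GSK-126, as were 26.7% of all promoters tested. Of the 4, Gja1 and Kdr could be tested only through their DMSO libraries. At the common length only Cldn5 could be tested, and it was not called. Gja1 had no peak in the 3 GSK-126 libraries, against 9.12%, 17.0% and 20.2% in their DMSO controls. Kdr had no peak in the GSK-126 libraries, against 12.6%, 10.5% and 8.68% in DMSO. Sox8 coverage was 3.60%, 0.817% and 0% with GSK-126, against 14.4%, 12.1% and 10.6% in DMSO. Whether the 2 groups overlapped at a marker is not read as a result, since the share of all promoters without overlap was not counted. Of the 2385 promoters tested with all deposited peaks, 87.4% had a lower mean with GSK-126.

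Cldn5 kept a peak in all 3 GSK-126 libraries, at 19.7%, 12.6% and 14.1%, against 24.3%, 30.2% and 21.7% in DMSO. Pdgfra had no peak with GSK-126, against 2.83%, 3.73% and 11.6% in DMSO. Sox10 had a peak in all 3 GSK-126 libraries, with 2.30%, 3.03% and 4% in the GSK-126 libraries, against 0%, 0% and 3.52% in DMSO. Mbp coverage was 0%, 2.48% and 0% with GSK-126, against 5.62%, 2.52% and 1.77% in DMSO, and Mobp coverage was 0%, 0% and 2.08% with GSK-126, against 0%, 0.833% and 0% in DMSO.

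At the common length only Cldn5 had enough coverage to be tested. It averaged 14.2% with GSK-126 and 14.0% in DMSO (difference 0.217 points, SE 6.50, limma adjusted p = 0.997), where 2.45% of 939 promoters were called higher and 4.37% lower. With all deposited peaks 7 markers were tested and 4 fell: Kdr (−10.6 points, SE 1.64, limma adjusted p = 0.0062), Sox8 (−10.9 points, SE 1.84, limma adjusted p = 0.0077), Gja1 (−15.4 points, SE 2.88, limma adjusted p = 0.011) and Cldn5 (−9.94 points, SE 2.90, limma adjusted p = 0.045). In the same fit 26.7% of 2385 promoters were called lower and 0.21% higher, and the median change of all promoters tested was −4.77 points. Pdgfra (−6.04 points, limma adjusted p = 0.12), Mbp (−2.47 points, limma adjusted p = 0.33) and Sox10 (1.94 points, limma adjusted p = 0.43) were not called. Gja1, Kdr and Pdgfra had peaks in the 3 DMSO libraries alone and passed the filter only through that group. Their direction was fixed by this, so the number called is no support by itself. Leaving out 1 DMSO library removed Gja1 and Kdr from the test, and the calls that remained were then Sox8 alone without DMSO replicate 1 or 2, and Sox8 and Cldn5 without DMSO replicate 3. The call of Cldn5 was also lost without GSK-126 replicate 2 or 3 (limma adjusted p = 0.133 and 0.130) and with the replicate number as a block (limma adjusted p = 0.059).

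By presence, 3 of the 6 markers with a peak in all 3 DMSO libraries had none with GSK-126 (Gja1, Pdgfra and Kdr), where 20.6% of 1893 such promoters had none. The number of the 33 markers with a peak was 3, 4 and 5 in the GSK-126 libraries (a mean share of 12.1%), against 7, 9 and 9 in DMSO (25.3%), while the share of all promoters averaged 10.1% with GSK-126 and 13.4% in DMSO. The GSK-126 lists were shorter as a whole, at 2.00, 1.07 and 1.63 Mb, against 3.29, 4.23 and 3.55 Mb in DMSO. The part of this shortening in the loss at the markers was not tested. At the common length only Cldn5 had enough coverage for the fit. Ribosomal protein genes, active in every cell, had a peak at 7, 6 and 18 of 82 promoters in the GSK-126 libraries and at 9, 8 and 10 in DMSO. GSK-126 replicate 3 was the library with 18, and without it Kdr, Sox8 and Gja1 were called lower and Cldn5 was not, where 342 of 2253 promoters were called lower.

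The third comparison asked the same of blocking the demethylases, and no marker was called with GSK-J4. Gja1 coverage was 2.03%, 4.98% and 19.2% with GSK-J4, against 10.9%, 11.7% and 12.2% in its DMSO controls. Sox8 coverage was 0.933%, 4.98% and 20.1% with GSK-J4, against 9.42%, 7.77% and 8.48% in DMSO. Cldn5 coverage was 6.55%, 18.7% and 21.2% with GSK-J4, against 17.6%, 19.9% and 12.5% in DMSO. In each of these genes the GSK-J4 libraries ran from below to above the DMSO range, and replicate 3, the highest, also had the longest list of the 6.

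Kdr coverage was 0%, 0% and 7.53% with GSK-J4, against 3.10%, 3.17% and 2.88% in DMSO. Pdgfra coverage was 4.78%, 3.70% and 0% with GSK-J4, against 2.17%, 0% and 0% in DMSO. Mbp coverage was 0%, 2.07% and 3.10% with GSK-J4, against 0%, 0% and 2.60% in DMSO. Sox10 coverage was 0%, 0% and 3.13% with GSK-J4, against 3.05%, 2.65% and 0% in DMSO, and Mobp had no peak with GSK-J4, against 2.38%, 1.8% and 0% in DMSO. The 2 groups overlapped at Mbp, Sox10, Pdgfra and Mobp, and at Kdr the GSK-J4 values lay on both sides of the DMSO values.

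At the common length Gja1, Sox8 and Cldn5 were tested. Gja1 averaged 2.34% with GSK-J4 and 11.6% in DMSO (difference −9.27 points, SE 2.34, limma adjusted p = 0.97). With all deposited peaks the difference of Gja1 was −2.86 points (SE 4.35, limma adjusted p = 0.999), its 95% interval reaching 10.1 points to either side. Neither fit called any promoter (0% of 1524 at the common length and 0% of 2034 with all deposited peaks, in both directions), while 73 and 31 promoters had an unadjusted limma p below 0.05. None of the 4 markers with a peak in all 3 DMSO libraries lost it in all 3 GSK-J4 libraries, where 1.24% of 1205 such promoters did.

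The 3 groups harvested on DIV5 without an inhibitor, untreated DIV5 and the 2 DMSO controls, showed which markers recurred on 1 day. Gja1, Sox8, Cldn5 and Kdr had a peak in all 9 of these libraries and Mbp in 7. Pdgfra had one in 5, Mobp in 4 and Sox10 in 3. For Pdgfra this was 1 of 3 untreated, 3 of 3 GSK-126 vehicle and 1 of 3 GSK-J4 vehicle libraries, so its count varied between groups of the same day as it did between days.

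Of the other oligodendrocyte markers, Cspg4, the NG2 proteoglycan of precursors, had a promoter peak in 4 libraries, Mag, a myelin adhesion protein, in 3, and Cnp, an enzyme of myelin, in 2. Mog, a protein of the outer myelin sheath, had none. Microglial markers were nearly free of peaks. Itgam, an integrin subunit, had a peak in 4 libraries and Cx3cr1, the fractalkine receptor, in 2, whereas Aif1, Csf1r, P2ry12 and Tmem119 had none. Among markers of mural cells and fibroblasts, Pdgfrb, the receptor of pericytes, had a peak in 2 libraries, and Acta2, Dcn and Lum had none. The astrocyte markers Gfap, Aqp4, Aldh1l1, S100b and Fabp7 had none. In the 8 markers with a peak in 1 to 7 libraries, coverage where present ran from 0.800% to 6.93%. The windows of Cspg4, Itgam and Pecam1 each hold the 5′ end of 1 other gene (Odf3l1, Gm49368 and Milr1), so that a peak there cannot be assigned to the marker alone.

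The annotated 5′ end was not the start of the protein-coding transcripts for Gfap, Aldh1l1 and Csf1r, where these begin 3712, 64362 and 4974 bp or more downstream. At the protein-coding starts of Aldh1l1, a folate enzyme of astrocytes, 8 libraries had a peak, compared with none at the 5′ end. Peaks in the body of the gene, outside the promoter window, were found in 8 or more libraries at 6 markers: Flt1 in 17, Mag in 15, Cx3cr1 in 14, Aldh1l1 and Mobp in 11 each, and Kdr in 9. In Mag, 13 libraries shared an intronic position 6686 bp downstream of the 5′ end (chr7:30908176-30908198), and in Flt1 13 libraries shared one 114517 bp downstream (chr5:147611487-147611501). No other protein-coding gene covered these positions or started within 3 kb of them. The 14 libraries of Cx3cr1 were spread over 14 separate regions of an annotated gene of 168264 bp, with at most 6 libraries at 1 position. In 11 of the 33 markers, among them Olig1, Olig2, P2ry12 and Tek, neither the window nor the gene body had a peak in any library.

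A second list of 50 markers of the same cell classes was counted in the same way. It had a promoter peak in at least 1 library at 29 genes and in 8 or more libraries at 19 (38.0%). Myrf, the transcription factor that drives myelin genes, had a peak in all 24 libraries. Kcnj8, a potassium channel subunit of pericytes, had one in 23, and Fgfr3, an astrocyte receptor, and Sox18, an endothelial transcription factor, in 22 each. None of the 50 was called in the time course or with GSK-J4 in either fit, or with GSK-126 at the common length. With GSK-126 and all deposited peaks 3 of 17 tested were called lower, Gdf10 and Ugt8a among them, where 26.7% of all promoters tested were. By presence, 2 of the 16 with a peak in all 3 DMSO libraries had none with GSK-126, where 20.6% of all such promoters had none. Gdf10, a secreted factor of Bergmann glia, averaged 1.16% with GSK-126 and 19.1% in DMSO (limma adjusted p = 0.0038). Ugt8a, an enzyme of myelin lipid synthesis, averaged 1.87% with GSK-126 and 7.86% in DMSO (limma adjusted p = 0.049), a call that was lost with the replicate block and on leaving out each of the 6 libraries in turn.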

How the data were processed

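H3K27me3 CUT&RUN was performed on CGNs with paired-end sequencing. Reads were trimmed (Trimmomatic 0.38), aligned to mm10 (STAR 2.7.2b) and broad peaks were called per library (MACS2 2.1, FDR threshold 0.1), and the control of the call is not given in the sources used here. The deposited lists give each peak's fold enrichment over local background (a ratio), its −log10 p and −log10 q, and a score that the authors' caller derived from −log10 q, which was not used further. Read counts were not used here.

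Promoter windows of 6 kb around the 5′ ends of 21938 protein-coding genes (GENCODE M21, mm10) were intersected with the peaks (Python 3.11.15, pysam 0.24.0, minimum overlap 1 bp). Coverage was tested with limma 3.58.1 (R 4.3.3, robust eBayes, two-sided, Benjamini-Hochberg over all promoters covered in at least 3 libraries), after limiting lists to a common length. The limma step, but not the limiting of lists, was first run on simulated coverage. That coverage was set higher than the real coverage of the promoters. Values were given per library for Gja1, Mbp, Sox8, Cldn5, Kdr, markers with a peak in at least 8 libraries and called markers. From the second list, called genes and those with the most libraries were named, except that 1 result is not reported here. Markers, lists and tests were chosen with earlier results of these data known. Replicates are pooled litters, so p-values measure the spread between cultures. Sequences from chromosome 18, which holds Mbp, Aqp4, Csf1r and Pdgfrb, were not printed.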

Additional observations from a re-analysis of the deposited data

How the results depend on the processing

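No marker was called in the time course or with GSK-J4 at the common length under any alternative run. With GSK-126, 0 markers were called at the common length, where only Cldn5 was tested, and 4 of 7 tested with all deposited peaks. Leaving out single libraries gave 1 to 4 with all deposited peaks, the lowest without DMSO replicate 1 or 2. In the time course with all deposited peaks, leaving out single libraries gave 0 to 1 marker, the 1 being Pdgfra without DIV1 replicate 1. Fits with the replicate number as a block are given because the labels number the libraries. At the common length same-numbered libraries deviated together little, with r of −0.069 to 0.157 in the time course. It was −0.059 to 0.093 for GSK-126 and 0.027 to 0.034 for GSK-J4. Between libraries of different numbers r was −0.134 to 0.066, −0.103 to 0.063 and −0.037 to 0.003, in the same order. With all deposited peaks this was not checked. With the block, 3 markers were called for GSK-126 with all deposited peaks, where Cldn5 was lost. With the block 0 promoters in all were called for GSK-126 and 12 in the time course at the common length, and 591 and 33 with all deposited peaks.

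The number of all promoters called in the time course, 14 at the common length, was 56 with all deposited peaks, 7 with peaks of −log10 q of at least 2, 6 with ranking by fold enrichment and 8 with the 1 kb window. It was 11 to 27 leaving out single libraries and 5 leaving out the first library of every day, an alternative added after seeing the data. With all deposited peaks these ranged over 4 to 400 (400 without DIV1 replicate 1, 4 without DIV1 replicate 3), with 256 leaving out the first library of every day. For GSK-126 the number was 64 at the common length, 641 with all deposited peaks and 4 with −log10 q of at least 2. Leaving out single libraries gave 0 to 22 at the common length and 278 to 658 with all deposited peaks. For GSK-J4, 1 promoter was called with −log10 q of at least 2. The causes were not tested.

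The direction of some changes turned, all of them uncalled except Cldn5 with GSK-126 and all deposited peaks. In the time course Cldn5 changed by −9.91 points with all deposited peaks. With all deposited peaks and single libraries left out, Sox8 ran from −3.67 to 3.84 points and Kdr from −0.750 to 1.98 points, and both were −2.75 and −0.122 points leaving out the first library of every day. With GSK-126, Cldn5 changed by −9.94 points with all deposited peaks, and ran from −6.77 to 5.38 points at the common length with single libraries left out. With GSK-J4, Sox8 changed by 0.1 points and Cldn5 by −1.19 points with all deposited peaks. Leaving out single libraries there gave −8.10 to 0.503 points for Gja1, −5.60 to 3.96 for Sox8, −4.04 to 3.26 for Cldn5 and −3.05 to 0.717 for Kdr. Markers with a peak in at least 1 library numbered 5 with −log10 q of at least 2. Those with a peak in 8 or more libraries numbered 2 at the common length (6.06%, against 6.54% of all promoters), 0 with −log10 q of at least 2 (against 1.01%) and 5 with the 1 kb window (15.2%, against 9.51%).

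Sequencing depth is unknown, so a promoter without a peak may hold signal below the threshold of the call. With 3 libraries a group, the 95% interval of a tested marker reached up to 18.1 points to either side with all deposited peaks.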
